A study of Homo sapiens with 6 samples.

Results

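ARNT, the hypoxia-inducible factor (HIF) genes HIF1A and EPAS1, the oxygen-sensing prolyl hydroxylase genes EGLN1 and EGLN3, the VEGF ligand genes VEGFA, VEGFB and VEGFC and the neuropilin genes NRP1 and NRP2 were followed in KGN cells after depletion of FOXL2. These 10 genes, found by their Ensembl identifiers among the 60671 genes of the deposited tables, were chosen from results of this same contrast, in which the mRNA of ARNT was already known to be lower. The values below are therefore a description of the group and no independent support for its direction. KGN is an established human granulosa cell line, here a genome-edited version with 2 wt alleles of FOXL2. Cells received 30 pmol of siRNA and RNA was extracted 30 h after transfection, with 3 libraries per condition. The control siRNA libraries received a scrambled siRNA, and each FOXL2 siRNA library received a pool of 3 siRNAs against FOXL2. All 3 pools had 1 siRNA in common, and any pair of pools shared 2 of their 3 siRNAs. These libraries therefore repeat the depletion but not the exact mixture, and they are not independent in their siRNAs. The different pools mean separate transfections for the FOXL2 siRNA libraries, but nothing in the labels says this of the control siRNA libraries. Whether the cells transfected came from separate starting cultures is not said for either condition. The p-values measure the spread between these libraries only.

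ARNT (also called HIF-1β) is the stable partner with which the oxygen-regulated subunits HIF1A and EPAS1 (HIF-2α), and also the aryl hydrocarbon receptor AHR, form the dimers that bind DNA. In the presence of oxygen the EGLN enzymes hydroxylate the HIF-α proteins, which marks them for the VHL ubiquitin ligase, so the abundance of HIF-α is set largely at the protein level, which RNA sequencing does not measure. VEGFA is a classical HIF target. VEGF ligands act through the receptor kinases FLT1, KDR and FLT4 with the neuropilins as co-receptors, which also bind class 3 semaphorins, and VEGF made by granulosa cells drives the growth of vessels around the follicle and in the corpus luteum.

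Short sequences of these genes are shown first, because HIF dimers read the letters ACGTG or GCGTG and forkhead proteins read TAAACA in DNA. In addition, the study reports that FOXL2 binds RNA rich in G doublets. Promoters (250 bases before to 50 after the RefSeq start site, build GRCh38.p14) were at hand for 8 of the 10 genes, VEGFA and NRP1 being the exceptions, and HIF1A had a pair of entries. ACGTG or GCGTG was found on either strand in a promoter of 5 of the 8 genes, and in 48.4% of all 35116 promoters. TAAACA was found only in the second HIF1A entry, in both orientations, and in 12.3% of all promoters. The 300 bases of ARNT held none of these letters. The searched letters are in capitals, and the strand shown is that of the gene.
EGLN1 (chr1:231422284-231422312, minus strand): gggccgtggtgtACGTGcagagcgcgcag
EPAS1 (chr2:46297278-46297306, plus strand): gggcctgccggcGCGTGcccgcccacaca
HIF1A (chr14:61695297-61695325, plus strand): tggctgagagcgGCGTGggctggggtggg
VEGFB (chr11:64234511-64234539, plus strand): ccggtggggagcGCGTGtctgggtcacat
VEGFC (chr4:176792965-176792993, minus strand, the letters read on the other strand): gcccgggctcggCACGCtccctccctcgg
HIF1A second entry (chr14:61697691-61697720, plus strand): gaaaaattaagtTAAACActtaataagtgg
The EGLN1 match began 13 bases before the start site, those of VEGFC, VEGFB and EPAS1 began 59, 61 and 117 bases before it, and that of HIF1A 204 bases before it. A match of these letters is no proof of a binding site, and their absence does not exclude one. The study gives looser FOXL2 sequences and cites binding peaks that tend to lie in introns and between genes, neither of which was searched.

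A run of 8 G doublets separated by 1 to 4 bases was sought in the longest GENCODE v29 transcript of each gene. It was present in 3 of the 10 genes (ARNT, EGLN1 and VEGFA) and in 19.3% of the 15530 tested genes that had a transcript in that release. In ARNT it lay in the 5′ UTR, in bases 163 to 187 of a transcript of 4887 bases, and 6 of the 12 annotated ARNT transcripts held it. Besides protein-coding transcripts, these include forms annotated for nonsense-mediated decay and a form with a retained intron. The EGLN1 match was also in the 5′ UTR, in bases 2826 to 2852 of 7097. In VEGFA only 1 of 32 annotated transcripts held a match, a non-coding form with retained introns. The doublets are in capitals below (build GRCh38), with G between doublets left in lower case.
ARNT (chr1:150876582-150876606, minus strand): GGgGGgGGgGGtGGcgcGGcGGcGG
EGLN1 (chr1:231422193-231422219, minus strand): GGcGGcGGcGGcGGccgaGGgGGccGG

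The 6 libraries held between 23843192 and 28791954 expected counts, the reads that RSEM assigned to genes. CPM below are counts scaled to the TMM-normalized library size, with which a gene can be compared between libraries, and TPM are scaled to transcript length as well, with which genes can be compared with each other. FOXL2 siRNA replicate 2 lay far from the rest on the leading principal component (34.8% of the variance of log2 CPM), at -30.6, whereas the others lay between -1.22 and 13.2. Fold changes of named genes that change sign or move by over 1.5 times without this library are given with and without it. FOXL2 itself stood at 9.88, 9.71 and 10.8 CPM in the controls and at 2.64, 3.31 and 2.36 CPM after FOXL2 siRNA. It fell by 1.88 on the log2 scale (SE 0.142, adjusted p = 0.00267 in edgeR's quasi-likelihood test), to 27.3% of the control mean, while an exact two-sided permutation test cannot give less than the 0.1 found with 3 libraries against 3.

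The granulosa identity of the cells was only partly visible in their mRNA. FST, NR5A1, INHBA and AMH were present at means of 69.4, 36.6, 31.1 and 26.8 TPM over the 6 libraries, and INHBB at 7.61 TPM. The FSH receptor gene FSHR and WT1 had no count in any library, and AMHR2, INHA, CYP19A1 and GATA4 averaged at most 0.18 TPM, so 6 of the 12 markers passed the filter on low counts. The 8 endothelial markers summed to between 2.6 and 4.09 TPM per library, mostly TEK, and the VE-cadherin gene CDH5 averaged 0.005 TPM. Among markers of other gonadal or blood cells, SOX9 averaged 6.88 TPM and the lysosomal gene CD68 69.4 TPM. Of the 3 tested markers of that list, 1, CD68, had conditions that did not overlap, as did 20.5% of all genes tested (67.2, 60.7 and 67.9 CPM in the controls, 47.9, 51.9 and 59.8 CPM after FOXL2 siRNA, log2 fold change -0.29, SE 0.092, adjusted p = 0.233 in edgeR), while the leukocyte gene PTPRC averaged 0.727 TPM. Its part in the results below was not tested. The granulosa list summed to 181, 189 and 176 TPM in the controls and to 153, 175 and 178 TPM after FOXL2 siRNA, so the conditions overlapped in the sum, of which FST was the largest part. Conditions did not overlap in CPM for 2 of the 6 tested granulosa markers, against 20.5% of all genes. They were FOXL2 and INHBB, which encodes an activin subunit. INHBB had 14.1, 14.5 and 14.3 CPM in the controls and 15.4, 18.2 and 16.3 CPM after FOXL2 siRNA (log2 fold change 0.22, SE 0.091, adjusted p = 0.352 in edgeR). NR5A1 did not overlap in TPM (35.3, 34.7 and 34.6 TPM against 39.2, 36.9 and 39.0 TPM), as 18.4% of all genes, but did in CPM.

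ARNT (chr1:150809705-150876768, minus strand, GRCh38) had 904, 808 and 924 expected counts in the controls and 629, 560 and 768 after FOXL2 siRNA. These corresponded to 36.0, 33.0 and 34.5 CPM in the controls against 23.0, 23.1 and 26.6 CPM after FOXL2 siRNA. All 3 FOXL2 siRNA libraries lay below all 3 controls, and the mean was 70.4% of the control mean. The log2 fold change was -0.51 (SE 0.084), and 2.78% of the 15663 genes tested had a lower one. The adjusted p in edgeR was 0.051, just outside the threshold of 0.05. In bulk RNA, fewer cells with the transcript and less transcript per cell cannot be told apart. Per length the difference was larger, since TPM were 21.4, 18.1 and 19.6 in the controls and 13.2, 12.8 and 12.6 after FOXL2 siRNA, or 65.3% of the control mean. The FOXL2 siRNA libraries were close to each other on this scale (SD 0.283 TPM, against 1.66 TPM in the controls). In CPM their SD was 2.06, against 1.53 in the controls. TPM also depend on the length that RSEM estimated for ARNT in each library. It was 2497, 2713 and 2550 bases in the controls and 2557, 2843 and 3130 bases after FOXL2 siRNA, with overlapping values.

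Whether ARNT counted as called turned on the processing, although its direction did not. DESeq2 on the same counts called it (log2 fold change -0.51, adjusted p = 0.000443), as it did with RSEM's effective lengths as offsets (-0.62, adjusted p = 8.63e-06), and edgeR with the same offsets also called it (-0.62, adjusted p = 0.0392). Without FOXL2 siRNA replicate 2, the library that stood apart, edgeR gave -0.48 with an adjusted p of 0.0183. Without 1 of the control siRNA libraries the adjusted p rose to between 0.187 and 0.327, and the log2 fold change stayed between -0.54 and -0.47. Over all 17 fits it lay between -0.62 and -0.47.

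**Figure D1:**
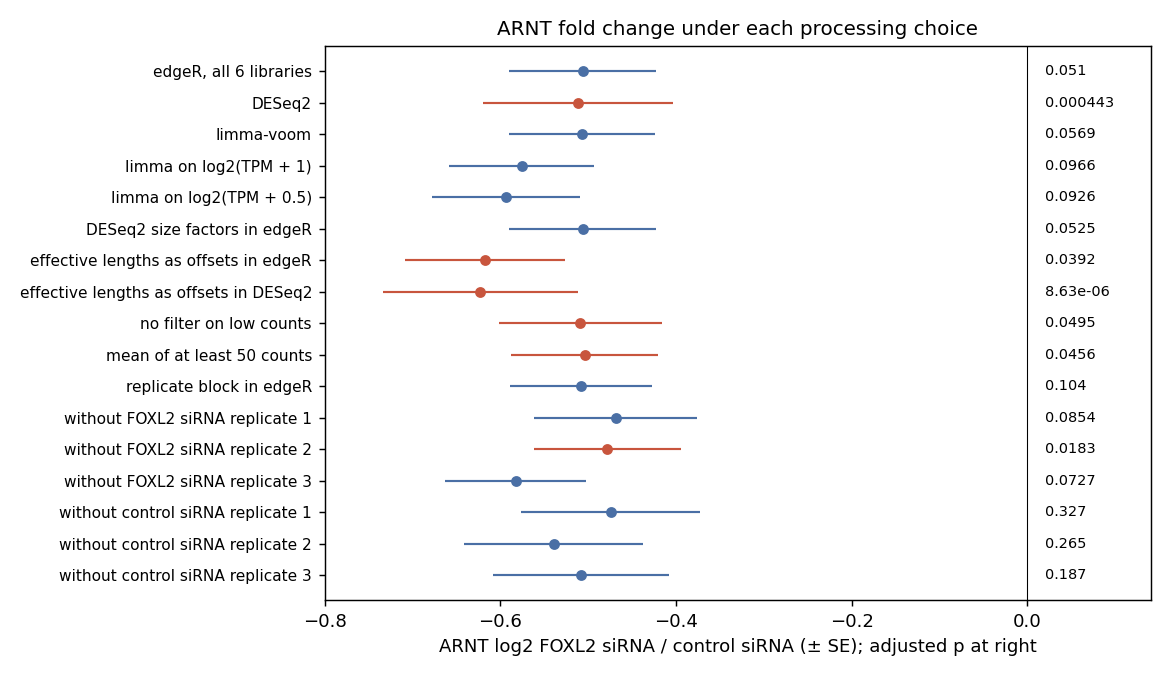
Log2 fold change of ARNT (x axis, FOXL2 siRNA over control siRNA, bars are SE) under each of the 17 processing choices (y axis), with the adjusted p printed at the right. Red points have an adjusted p below 0.05, and all points lie between -0.62 and -0.47.

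Among the 9 genes of the group that were tested, edgeR called 0, against 0.255% of all genes (40 of 15663), with 2 of them, ARNT and NRP1, at an unadjusted p under 0.05, against 13.5% of all genes (2114 of 15663). DESeq2 called 1, ARNT, against 3.06% of the genes for which it gave an adjusted p, and 1 again with effective lengths as offsets, against 2.85%. The conditions did not overlap in CPM for 2 of the 9 (ARNT lower, NRP1 higher), against 20.5% of all genes tested. Because the group was assembled with this contrast known, nothing is read from these counts.

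**Figure D2:**
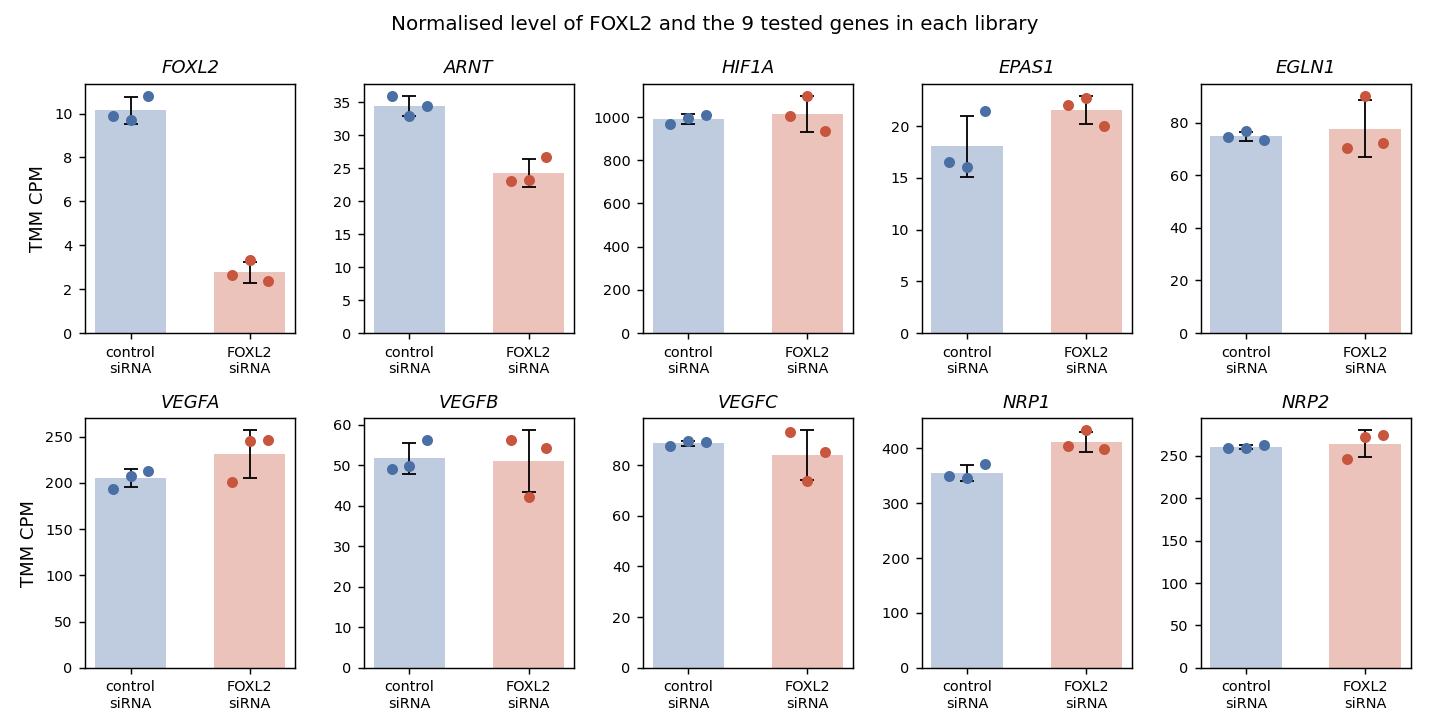
TMM-normalized CPM (y axis, each panel from 0) of FOXL2 and of the 9 tested genes in each of the 3 control siRNA and 3 FOXL2 siRNA libraries (points), with the mean (bar) and SD (error bar). FOXL2 and ARNT lie lower in all FOXL2 siRNA libraries and NRP1 lies higher, while the points of the other genes overlap between the conditions.

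HIF1A (chr14:61695513-61748259, plus strand), the oxygen-regulated partner of ARNT, was the most abundant gene of the group. It stood at 967, 994 and 1010 CPM in the controls and at 1004, 1100 and 936 CPM after FOXL2 siRNA. The FOXL2 siRNA libraries lay on both sides of the controls, and the log2 fold change was 0.03 (SE 0.069, adjusted p = 0.874 in edgeR), or -0.03 (SE 0.052) without replicate 2. The antisense genes HIF1A-AS1 and HIF1A-AS3 overlap it and had between 2.01 and 37.0 counts per library, against 24262 or more for HIF1A. The strand setting of the counting is not given in the sources used here, so reads of HIF1A and of its antisense partners may have been mixed, at a scale that was not tested.

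EPAS1 (chr2:46293667-46386703, plus strand), which encodes the alternative oxygen-regulated subunit, was far less abundant. Its CPM were 16.6, 16.1 and 21.5 in the controls and 22.0, 22.7 and 20.1 after FOXL2 siRNA. Control replicate 3 reached the level of the FOXL2 siRNA libraries, so the conditions overlapped, with a log2 fold change of 0.26 (SE 0.119, adjusted p = 0.389 in edgeR). That control library weighed on the value, since without it the log2 fold change was 0.40 (SE 0.097, adjusted p = 0.252), and single omissions of the 6 libraries gave 0.18 to 0.40.

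Per length, HIF1A mRNA exceeded ARNT mRNA by 28.2, 34.2 and 32.9 times in the controls and by 47.1, 43.8 and 48.0 times after FOXL2 siRNA. The ratio did not overlap between the conditions, and it contains the ARNT values by which the group was chosen. The HIF1A to EPAS1 ratio, by contrast, was 86.3 ± 14.9 (SD, n = 3) in the controls and 71.6 ± 8.29 (SD, n = 3) after FOXL2 siRNA, with overlapping values.

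ARNT2, a paralog that can replace ARNT as the dimer partner, was present at 14.4, 10.3 and 16.7 TPM in the controls and at 13.9, 13.1 and 13.6 TPM after FOXL2 siRNA. The order of the 2 genes per length therefore differed between the conditions. ARNT exceeded ARNT2 by 1.49, 1.76 and 1.17 times in the controls, and stood at 0.945, 0.981 and 0.927 times ARNT2 after FOXL2 siRNA. ARNT2 itself had a log2 fold change in CPM of 0.09 (SE 0.095, adjusted p = 0.713 in edgeR, and 0.14 without FOXL2 siRNA replicate 2), and its effective length in control replicate 2 was 5686 bases against 4235 and 4236 in the other controls, which enters these ratios.

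EGLN1 (chr1:231363751-231425044, minus strand), the main oxygen sensor among the prolyl hydroxylases, stood at 74.8, 76.8 and 73.3 CPM in the controls and at 70.5, 90.4 and 72.5 CPM after FOXL2 siRNA. The single high value was that of replicate 2, the library that stood apart. With it the log2 fold change was 0.05 (SE 0.096, adjusted p = 0.848 in edgeR), and without it -0.07 (SE 0.056, adjusted p = 0.564). EGLN3 (chr14:33924231-34462774, minus strand), a hydroxylase gene that is itself inducible by HIF, had 1 count in FOXL2 siRNA replicate 2 and 0 in the other 5 libraries. It was not tested, and a count of 0 allows up to 3 counts, or 0.104 to 0.122 CPM in these 5 libraries (counting error only). EGLN2, the remaining hydroxylase gene, was present at 59.6 ± 2.42 TPM (SD, n = 3) in the controls and 59.0 ± 1.4 TPM (SD, n = 3) after FOXL2 siRNA.

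VEGFA (chr6:43770184-43786487, plus strand), the principal angiogenic ligand, had 194, 208 and 213 CPM in the controls and 201, 245 and 246 CPM after FOXL2 siRNA. Replicates 2 and 3 of FOXL2 siRNA lay above every control, but replicate 1 lay among them. The log2 fold change was 0.17 (SE 0.086, adjusted p = 0.409 in edgeR), and single omissions of the 6 libraries gave 0.12 to 0.26, the highest without FOXL2 siRNA replicate 1 (SE 0.066, adjusted p = 0.177).

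VEGFB (chr11:64234538-64238793, plus strand), a ligand of FLT1, had 49.1, 49.8 and 56.2 CPM in the controls and 56.4, 42.2 and 54.4 CPM after FOXL2 siRNA. For VEGFC (chr4:176683538-176792727, minus strand), the lymphangiogenic ligand, the values were 87.5, 89.4 and 89.1 CPM and 93.2, 73.8 and 85.1 CPM. In both genes FOXL2 siRNA replicate 2 was the lowest of the 6 libraries, and the conditions overlapped. Their log2 fold changes were -0.02 (SE 0.112) and -0.08 (SE 0.085), and without replicate 2 they were 0.09 and 0.00.

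NRP1 (chr10:33177492-33336262, minus strand), the co-receptor for VEGFA and class 3 semaphorins, had 349, 345 and 371 CPM in the controls and 404, 433 and 399 CPM after FOXL2 siRNA. No value overlapped, and the log2 fold change was 0.21 (SE 0.060, adjusted p = 0.19 in edgeR), which did not pass the threshold. Per length the conditions overlapped, with 170, 174 and 182 TPM in the controls and 176, 166 and 184 TPM after FOXL2 siRNA. With effective lengths as offsets in edgeR the log2 fold change was 0.00 (SE 0.064).

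The effective length, a length in bases that RSEM estimated for each gene in each library, is what separates the scales. For NRP1 it was 3044, 2960 and 2959 bases in the controls and 3358, 4103 and 3220 bases after FOXL2 siRNA, so the mean was 119% of the control mean, a ratio higher than in 95.1% of genes tested. The size of this ratio rested in part on replicate 2, without which the mean was 110% of the control mean, higher than in 92.2% of genes tested. Short and long NRP1 transcripts differ in what they encode, since truncated forms give soluble receptors, and the 14 NRP1 transcripts listed in the tables have 372 to 5882 bases in GENCODE v29. Values of single transcripts were not analysed here.

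NRP2 (chr2:205681990-205798133, plus strand), the co-receptor with a preference for VEGFC and for SEMA3F, differed between the conditions in length but not in CPM. Its CPM were 259, 259 and 263 in the controls and 247, 273 and 275 after FOXL2 siRNA, a log2 fold change of 0.02 (SE 0.061), or -0.0027 without replicate 2. Its effective length was 3945, 3957 and 4040 bases in the controls and 4306, 4382 and 4355 bases after FOXL2 siRNA, without overlap (109% of the control mean). Lengths did not overlap for 2 of the 9 genes, NRP1 and NRP2, against 9.97% of all genes tested. The same 2 genes were found without FOXL2 siRNA replicate 2, where the share of all genes was 18.3%. These lengths are estimates of RSEM with no test, and whether the annotation or the pools of siRNA bear on them was not tested.

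In the control siRNA libraries the order of the levels per length was HIF1A (623 ± 21.0 TPM), NRP1 (175 ± 5.89), VEGFA (122 ± 5.27), NRP2 (96.5 ± 1.70), VEGFB (85.3 ± 4.22), VEGFC (63.5 ± 1.38), EGLN1 (38.4 ± 2.20), ARNT (19.7 ± 1.66), EPAS1 (7.41 ± 1.65) and EGLN3 (listed at 0 TPM), each with the SD of 3 libraries. No pair of neighbours in this order overlapped between libraries. The order of the means was the same after FOXL2 siRNA, where ARNT stood at 12.9 ± 0.283 TPM and EPAS1 at 8.39 ± 0.940 TPM (SD, n = 3). NRP2 (83.9 to 98.1 TPM) and VEGFB (72.6 to 97.8 TPM) then overlapped. ARNT was among the less abundant transcripts of the group in both conditions.

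**Figure D3:**
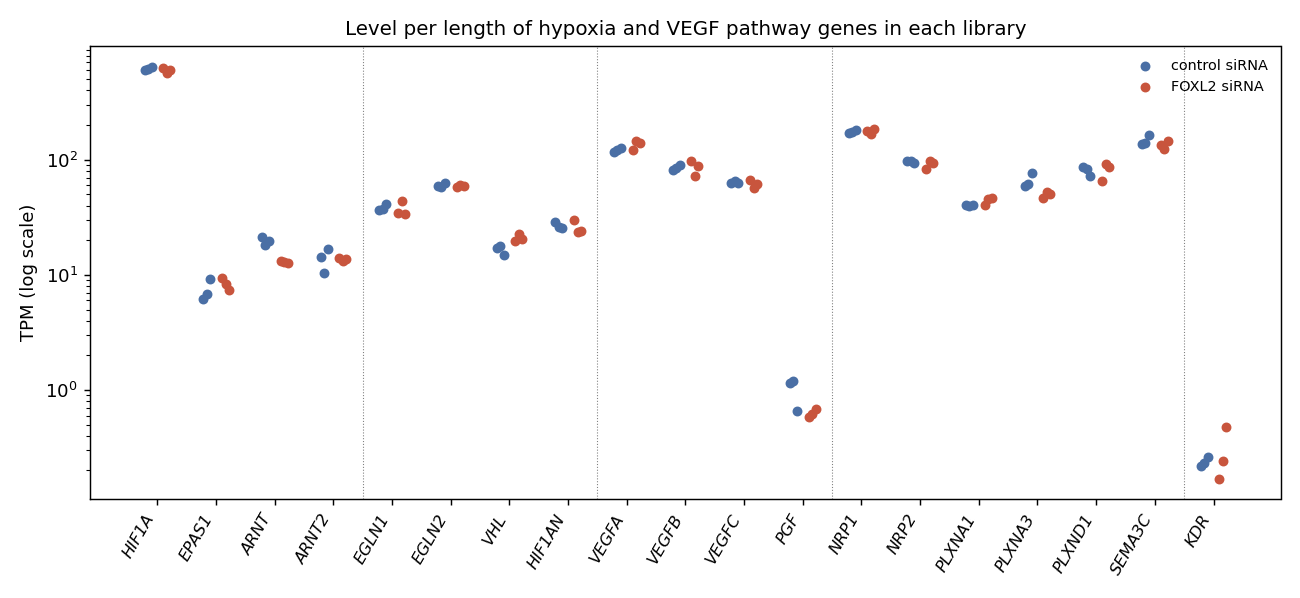
TPM (log y axis) of HIF subunits, regulators of HIF stability, VEGF ligands, co-receptors with semaphorin partners, and the receptor kinase KDR, separated by dotted lines, in each control siRNA (blue) and FOXL2 siRNA (red) library. HIF1A is the highest at about 600 TPM, KDR lies below 0.5 TPM, and genes listed at 0 in some library, among them FLT1 and FLT4, are not drawn.

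The wider HIF machinery was described with 23 further genes, of which 17 were tested. They comprise regulators of HIF stability and activity and the other members of the bHLH-PAS family that pair with ARNT or resemble it. EdgeR called 0 of the 17, against 0.255% of all genes, with 3 at an unadjusted p under 0.05, against 13.5% of all genes, and their median log2 fold change was 0.05, against 0.01 over all genes tested. VHL, which recognizes hydroxylated HIF-α, had 37.0, 36.3 and 31.5 CPM in the controls and 38.8, 46.0 and 42.5 CPM after FOXL2 siRNA, without overlap (log2 fold change 0.28, SE 0.092, adjusted p = 0.244 in edgeR). DESeq2 with effective lengths as offsets called VHL (adjusted p = 0.0477), 1 of the 16 genes with an adjusted p (2.85% of all such genes), and DESeq2 without them called 0 of the 16, against 3.06%. RBX1, a subunit of the VHL ligase, had a log2 fold change of 0.16 (SE 0.061) and the coactivator gene EP300 one of -0.15 (SE 0.058), both without overlap and with adjusted p of 0.325 and 0.328 in edgeR. The conditions of SIM1, a neuronal bHLH-PAS factor at 1.11 TPM, and of the circadian gene CLOCK also did not overlap (0.32, SE 0.173, and 0.22, SE 0.108), which made 5 of 17, against 20.5% of all genes. Both values rested largely on FOXL2 siRNA replicate 2, without which they were 0.16 (SE 0.157) for SIM1 and 0.07 (SE 0.058) for CLOCK. The dioxin receptor gene AHR and its repressor AHRR averaged 0.107 and 0.175 TPM and were not tested, nor was HIF3A, which had no count.

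HIF targets were represented by 36 genes known to be induced in hypoxia, 35 of them tested. EdgeR called 0 of the 35 (0.255% of all genes) and DESeq2 0 of the 33 for which it gave an adjusted p (3.06% of all such genes), 3 had an unadjusted p under 0.05 in edgeR (13.5% of all genes), and the median log2 fold change was 0.02. Signs were divided, 17 lower and 18 higher. Abundant among them were the glycolytic genes ENO1 (2651 TPM over all libraries), LDHA (2294 TPM), ALDOA (1368 TPM) and TPI1 (1237 TPM). Their log2 fold changes were 0.03 (SE 0.075), 0.08 (SE 0.064), -0.01 (SE 0.079) and 0.03 (SE 0.075). Without FOXL2 siRNA replicate 2 they were 0.09, 0.09, 0.05 and 0.09 (SE 0.053 to 0.066), so that of ALDOA changed sign.

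The conditions did not overlap for 5 of the 35 HIF targets (4 lower, 1 higher), or 14.3%, against 20.5% of all genes. NDRG1, a stress-responsive gene, had 40.9, 40.6 and 46.1 CPM in the controls and 30.5, 34.3 and 38.1 CPM after FOXL2 siRNA (log2 fold change -0.31, SE 0.096, adjusted p = 0.233 in edgeR). STC2, which encodes a secreted glycoprotein, was at -0.18 (SE 0.078), and at -0.11 (SE 0.059) without FOXL2 siRNA replicate 2. PFKFB4 and PFKFB3, which set the level of fructose 2,6-bisphosphate, were at -0.21 (SE 0.125) and -0.13 (SE 0.076), and INSIG2, which restrains sterol synthesis, was at 0.22 (SE 0.104).

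BNIP3L, a mitophagy receptor gene, was the HIF target whose edgeR call changed without FOXL2 siRNA replicate 2, although the values of others moved as well (ERO1A, an oxidase of the endoplasmic reticulum, from 0.27 to 0.12, and LOX, the lysyl oxidase gene, from 0.00 to -0.16). Its CPM were 85.7, 91.3 and 87.7 in the controls and 55.2, 98.4 and 62.2 after FOXL2 siRNA. Replicate 2 lay above every control and the other FOXL2 siRNA libraries below them. The log2 fold change was -0.30 (SE 0.182, adjusted p = 0.51 in edgeR) with all libraries and -0.59 (SE 0.068, adjusted p = 0.00341) without replicate 2, a fit in which 3.61% of all genes were called and 1 of the HIF targets. In TPM all FOXL2 siRNA libraries were lower (57.5, 70.7 and 65.3 against 83.5, 87.5 and 92.5), the effective length of replicate 2 being 2195 bases against 1406 and 1413 in the others. DESeq2 with effective lengths as offsets called BNIP3L (-0.45, SE 0.092, adjusted p = 0.000198), 1 of the 33 HIF targets with an adjusted p, against 2.85% of all such genes.

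AHR is the other partner of ARNT, and of its 6 targets examined only NQO1 and TIPARP were tested. CYP1A2 had no count, and CYP1A1 and CYP1B1 averaged 0.015 and 0.038 TPM. NQO1, a quinone reductase gene, stood at 1120 TPM over all libraries with a log2 fold change of -0.17 (SE 0.075, adjusted p = 0.376 in edgeR, and -0.11 without FOXL2 siRNA replicate 2). TIPARP, an ADP-ribosyltransferase gene, was at 0.08 (SE 0.095). Neither was called by edgeR (0.255% of all genes) or by DESeq2 (3.06% of the genes for which it gave an adjusted p). Neither had an unadjusted p under 0.05 in edgeR, against 13.5% of all genes. The conditions of both overlapped, whereas those of 20.5% of all genes did not.

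In the remainder of the VEGF and semaphorin system, 13 of 17 genes were tested and edgeR called 0 (0.255% of all genes), with 2 at an unadjusted p under 0.05 (13.5% of all genes). DESeq2 called 0 of the 10 for which it gave an adjusted p, against 3.06%. The receptor kinases were nearly silent. KDR had 13 to 35 counts per library and a mean of 0.267 TPM, FLT1 averaged 0.0033 TPM, and FLT4 had no count in any library, while NRP1 and NRP2 averaged 175 and 94.2 TPM. The ligands and co-receptors of the group were thus measured in cells with little mRNA of the kinases.

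Of the plexins, which signal with neuropilins, PLXNA3 was at 105, 116 and 123 CPM in the controls and at 99.7, 92.1 and 102 CPM after FOXL2 siRNA, the only gene of the 13 whose conditions did not overlap, against 20.5% of all genes (log2 fold change -0.23, SE 0.075, adjusted p = 0.243 in edgeR). It was the 1 call among the 10 genes with an adjusted p in DESeq2 with effective lengths as offsets (-0.40, adjusted p = 0.0112), against 2.85% of all such genes. PGF, the placental VEGF family ligand, had 31, 32 and 20 counts in the controls and 17, 16 and 22 after FOXL2 siRNA (log2 fold change -0.66, SE 0.291, adjusted p = 0.365 in edgeR), too few for a firm value. SEMA3C, the most abundant class 3 semaphorin gene of the list at 141 TPM, had a log2 fold change of 0.06 (SE 0.0997), and -0.07 (SE 0.056) without FOXL2 siRNA replicate 2.

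**Figure D4:**
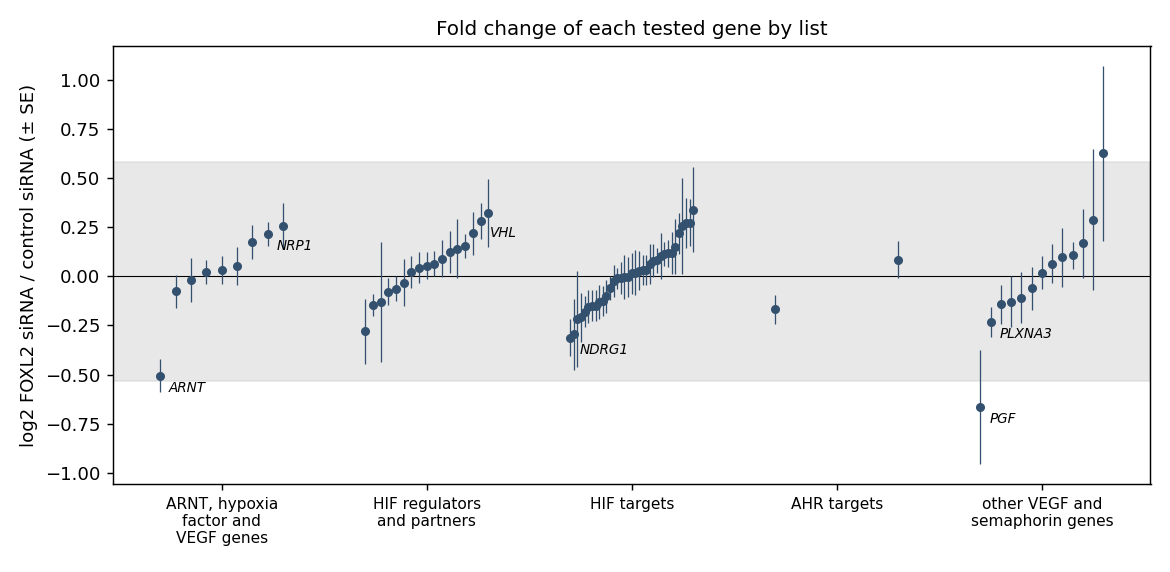
Log2 fold change, FOXL2 siRNA over control siRNA (y axis, bars are SE), of every tested gene in 5 lists (x axis, ordered within a list), beside the band that holds the central 95% of all 15663 genes tested (grey, -0.53 to 0.58). ARNT lies inside the lower edge of the band at -0.51, and the HIF targets lie between -0.31 and 0.34.

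The 5 tested genes whose log2 CPM followed ARNT most closely over the 6 libraries were DNMT1, the maintenance DNA methyltransferase gene (Pearson r = 0.999), SMARCA2, an ATPase of the SWI/SNF complex (0.997), POGLUT2, a protein glucosyltransferase gene (0.995), SMN2, a near-identical copy of SMN1 whose reads cannot be assigned with certainty (0.993), and PRDX1, a peroxiredoxin gene (0.991). These values describe 6 libraries in 2 conditions and carry no test. Their likeness to ARNT, whose conditions do not overlap, fixed that they too were lower in the FOXL2 siRNA libraries, and the size of the difference varied among them. POGLUT2 was at 21.4 ± 0.937 CPM in the controls and 14.6 ± 1.12 CPM after FOXL2 siRNA (SD, n = 3), with a log2 fold change of -0.55 (SE 0.088, adjusted p = 0.051 in edgeR, and -0.53 with an adjusted p of 0.0168 without FOXL2 siRNA replicate 2). DNMT1 stood at 231 ± 2.06 and 209 ± 4.83 CPM (SD, n = 3), a log2 fold change of -0.14 (SE 0.053, adjusted p = 0.31). Within the group itself, NRP1 ran opposite to ARNT (r = -0.913), EPAS1 less so (-0.717), and VEGFB and NRP2 showed little relation (0.177 and -0.058). The r of NRP1 contains the difference between the conditions, as ARNT was lower and NRP1 higher in CPM without overlap.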

How the data were processed

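Per the labels, mRNA was sequenced as single stranded-library reads, which the authors mapped with STAR 2.7.6a and quantified with RSEM 1.3.1 (versions from the submitters' processing notes). The notes name GRCm38, a mouse build, whereas the tables hold human Ensembl identifiers. For the human build and annotation, the name is not given in the sources used here. The deposited tables give, per gene, an expected count (an estimated count, not normalized), TPM scaled by the authors' run of RSEM to library and length, and an effective length in bases (a further deposited score).

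Expected counts were rounded, filtered with filterByExpr (15663 of 60671 genes), normalized by TMM and tested with edgeR 4.0.16 (quasi-likelihood, R 4.3.3) with Benjamini-Hochberg adjustment over all genes tested and a threshold of 0.05, after the script had been tested on simulated data. The alternatives were DESeq2 1.42.0, limma 3.58.1 (voom, and log2(TPM + 1) or log2(TPM + 0.5) where TPM averaged 1 or more), DESeq2's size factors, effective lengths as offsets, other filters, a replicate block, and each library left out. Genes named from a list were every called gene and the 2 lowest and 2 highest fold changes without overlap, plus the 5 most abundant HIF targets (1 of them is not reported here) and the 5 genes most like ARNT (log2 of CPM + 0.5). BNIP3L, ERO1A, LOX, PGF, SEMA3C, STC2, CLOCK, EGLN2, ARNT2, AHR, AHRR, HIF3A, the receptor kinases and the AHR targets were named after their values were seen. The members and lists were chosen with earlier results of these data known. Gene positions are those of GENCODE v29 on GRCh38. The library totals set a counting error only.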

Additional observations from a re-analysis of the deposited data

How the results depend on the processing

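The number of genes called was 40 with edgeR, 39 with limma-voom, 39 with DESeq2's size factors and 44 with effective lengths as offsets. It was 353 with DESeq2, 344 with DESeq2 and effective lengths, 13 with limma on log2(TPM + 1) and 13 on log2(TPM + 0.5), 70 with no filter on low counts and 64 with a mean of at least 50 counts. Leaving out 1 library gave between 2 and 579 calls, the highest without FOXL2 siRNA replicate 2 and 105, 9, 2, 3 and 2 without FOXL2 siRNA replicates 1 and 3 and control siRNA replicates 1, 2 and 3. Of the 9 tested genes of the group, 1 (ARNT) was called with DESeq2, with both fits on effective lengths, with no filter, with a mean of at least 50 counts and without FOXL2 siRNA replicate 2, so the count lay between 0 and 1 when a library was left out. DESeq2 with effective lengths called 1 of 16 HIF regulators, 1 of 33 HIF targets and 1 of 10 other VEGF genes with an adjusted p, against 2.85% of all such genes, and the HIF targets had between 0 and 1 calls when a library was left out. The replicate block in edgeR gave 11 calls and none in the group (ARNT adjusted p 0.104). The correlations of same-numbered libraries' deviations were -0.053, 0.054 and 0.068, and those of differently numbered libraries lay between -0.142 and 0.112. The deviations sum to 0 within each condition, which limits these correlations, so they cannot decide whether the numbers pair the libraries. After the data were seen, non-overlapping conditions were also counted in TPM (1 of 9, ARNT, against 18.4% of all genes) and without FOXL2 siRNA replicate 2 (3 of 9, ARNT, EGLN1 and NRP1, against 35.3%).

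The direction of ARNT, EPAS1, VEGFA and FOXL2 held in every fit, whereas those of the other 6 tested genes of the group changed in at least 1. With limma on log2(TPM + 1) and log2(TPM + 0.5), HIF1A was at -0.0633 and -0.0633, EGLN1 at -0.0433 and -0.0440, NRP2 at -0.0740 and -0.0744, and VEGFB at 0.0014 and 0.0014. With effective lengths as offsets in edgeR and in DESeq2, HIF1A was at -0.0645 and -0.0696, EGLN1 at -0.0425 and -0.0474, NRP2 at -0.0761 and -0.0814, VEGFB at 0.0117 and 0.0064, and NRP1 at -0.0012 and -0.0063. Leaving out 1 library gave -0.0345 to 0.0838 for HIF1A, -0.0727 to 0.118 for EGLN1, -0.0968 to 0.0936 for VEGFB, -0.158 to 0.0033 for VEGFC and -0.0069 to 0.0717 for NRP2, with the sign changed without FOXL2 siRNA replicate 2 in all 5, and also without control siRNA replicate 3 in VEGFB and FOXL2 siRNA replicate 3 in NRP2. The cause of these changes was not tested.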
